A study of Mus musculus with 4 samples.

Results

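Cyclophilins are a family of peptidyl-prolyl isomerases, enzymes that turn the peptide bond before a proline and so help proteins fold or change shape. The 7 genes described here, Ppia, Ppib, Ppic, Ppid, Ppif, Ppih and Ppil1, were taken by their gene symbol from the platform's annotation. They are 7 of 14386 genes on named spots, and 14 of 32064 spots. The family was chosen by the measured ratios of Ppia, which lay far from 0 at day 3 and between the days in these same arrays, so its values are given as a description and no test is attached to them.

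The RNA came from CGR8, a line of mouse embryonic stem cells. Total RNA of embryoid bodies grown in hanging drops, at day 3 or at day 10, was hybridised on a spotted array together with total RNA of the undifferentiated cells at day 0. Each day has 2 arrays, and the second is labelled a technical replicate of the first, so each day is 1 RNA pair and its SD measures technical error alone. No genotype change or drug is given in the labels. An embryoid body is a mixed aggregate of cell types, and in such bulk RNA a change in the number of cells that express a gene and a change in RNA per cell cannot be told apart.

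The deposited values are log2 ratios of the channels. The sources used here do not give which day is in the numerator or which dye each RNA carried. Signs are therefore those deposited, and "positive side" or "negative side" does not say at which day a transcript was more abundant. Every value below is centred on the array's median and given as mean ± SD of the 2 technical arrays (n = 1 RNA pair) unless an array is named. For a difference between the days, the SD is the square root of the sum of both days' squared SDs. A value is called beyond 2-fold where both arrays of a day reach 1, or both reach -1, as log2 ratios. Between 37471 and 41386 of 46128 spots carried a value on an array. The technical SD of 1 array, taken from the differences between the 2 arrays of a day over all genes, was 0.62 at day 3 and 0.73 at day 10.

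All cyclophilins share an isomerase fold and many bind the drug cyclosporin A. Cyclophilin A, the product of Ppia, is the abundant cytosolic member, and its complex with cyclosporin A inhibits the phosphatase calcineurin. Its mRNA is often used as a reference for PCR because many cells hold much of it. The other members work in separate places: cyclophilins B and C (Ppib, Ppic) in the secretory pathway, cyclophilin D (Ppif) in the mitochondrial matrix, the Hsp90 co-chaperone Cyp40 (Ppid) in the cytosol and nucleus, and the products of Ppih and Ppil1 in the spliceosome.

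The start regions of 5 of the 7 genes are held in the RefSeq promoter table of GRCm38.p6, and the 150 bases before each start are shown so that Ppia, the only member called beyond 2-fold, can be set beside its relatives. Ppic and Ppid are named only. For Ppif the start in the promoter table lies inside the gene's span in the gene table, chr14:25693574-25700468. Its bases shown and searched here therefore lie within that span. The letters run 5′ to 3′ on the gene's strand. Capitals mark matches, on either strand, to the letters TATAAA for the TATA box, GGGCGG for the GC box, CCAAT for the box of that name and CCGGAAGT for the ETS motif.
Ppia promoter, chr11:6415717-6415866, plus strand: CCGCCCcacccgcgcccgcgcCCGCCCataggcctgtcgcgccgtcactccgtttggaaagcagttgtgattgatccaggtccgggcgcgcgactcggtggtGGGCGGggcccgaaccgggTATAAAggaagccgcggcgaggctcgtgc
Ppib promoter, chr9:66060019-66060168, plus strand: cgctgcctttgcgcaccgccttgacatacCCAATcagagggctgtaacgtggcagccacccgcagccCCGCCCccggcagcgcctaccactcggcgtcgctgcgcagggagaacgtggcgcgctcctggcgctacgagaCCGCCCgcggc
Ppif promoter, chr14:25694020-25694169, plus strand: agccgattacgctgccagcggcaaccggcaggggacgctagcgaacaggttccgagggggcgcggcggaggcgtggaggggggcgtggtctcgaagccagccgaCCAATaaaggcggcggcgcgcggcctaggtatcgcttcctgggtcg
Ppih promoter, chr4:119320524-119320673, minus strand: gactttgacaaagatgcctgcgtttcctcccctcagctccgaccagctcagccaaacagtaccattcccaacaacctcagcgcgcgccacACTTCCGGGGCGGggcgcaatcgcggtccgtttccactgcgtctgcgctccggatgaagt
Ppil1 promoter, chr17:29263972-29264121, minus strand: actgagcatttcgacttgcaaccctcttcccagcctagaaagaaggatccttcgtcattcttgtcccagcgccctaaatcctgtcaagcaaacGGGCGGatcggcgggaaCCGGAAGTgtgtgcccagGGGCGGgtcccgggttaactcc
In the 250 bases before the start, Ppia held 1 TATA box, which lay 29 to 24 bases before the start, and 4 GC boxes. None of the other 4 promoters held TATAAA, which occurs in 13.0% of 27025 promoters of that length. Each of the 5 held at least 1 GC box (32.9% of all promoters). Ppif, Ppih and Ppil1 each held 1 ETS motif (2.93% of all promoters), in Ppif at 196 to 189 bases before the start and so outside the stretch shown. In Ppih the ETS motif shares 1 base with the GC box. CCAAT boxes were found in Ppib, Ppif and Ppil1 (34.5% of all promoters), and the E box letters CACGTG in none of the 5 (6.05% of all promoters). Also outside the stretch shown are a GC box of Ppia (198 to 193 bases before the start) and that of Ppif (169 to 164). The same holds for a CCAAT box of Ppib (160 to 156) and that of Ppil1 (217 to 213). GC content over the 250 bases was 72.4% for Ppia, 65.2% for Ppib, 62.8% for Ppif, 58% for Ppil1 and 56.8% for Ppih, against a median of 52.0% over all promoters. These matches describe the letters alone, and the arrays do not measure binding.

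Ppia lay far on the positive side at day 3 and on the negative side of 0 at day 10. At day 3 its centred log2 ratio was 2.63 on array 1 and 2.57 on array 2. The mean, 2.60 ± 0.04, is a 6.05-fold ratio between the channels and ranked 9 of 13707 genes from the positive end. The 4 spot readings behind it, 2 adjacent spots on each array, ran from 2.56 to 2.63, so the lowest reading was far above the 2-fold limit. At day 10 the gene gave -0.75 on array 1 and -0.45 on array 2, with spot readings from -0.86 to -0.34. The day 10 mean, -0.60 ± 0.22, was inside the 2-fold limit and at percentile 14.0 of 13199 genes. Readings of the days therefore did not overlap on any spot, in a gene chosen for these values. The share of all genes without such overlap was not counted. Of 12654 genes, 13.8% had both day 3 arrays on the opposite side of 0 from both day 10 arrays.

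Set against each other through day 0, the 4 differences of a day 10 array from a day 3 array ran from -3.38 to -3.01 for Ppia. Their mean, -3.20 ± 0.22, is a 9.17-fold change of the ratio and ranked 5 of 12654 genes from the negative end. This and every comparison of signs between the days take the ratio to run the same way on all arrays, which the sources used here do not state. With the sign of the day 10 arrays turned, a setting added after the data were seen, the difference of Ppia was -2.00 ± 0.22, a 3.99-fold change that ranked 284 of 12654, and it was still called, as were 9.19% of all genes. Over all genes a day 3 array and a day 10 array correlated at 0.116 to 0.164 as deposited, across genes that are not independent. The 2 technical arrays of a day correlated at only 0.286 at day 3 and 0.219 at day 10. These correlations do not settle the direction. The day 0 RNA is also taken as common to the arrays, which the labels do not state, and both days' values share it. Ppia was the single member called at day 3 and between the days. Of all genes, 2.8% were called at day 3 (1.82% on the positive side), 3.65% at day 10 and 3.56% between the days (1.69% on the negative side). The gene lies at chr11:6415867-6419817 in GRCm38.p6. That gene table lists 60 pseudogenes with a Ppia-ps synonym, 2 of them transcribed, spread over 19 chromosomes, and none by that kind of name for the other 6 members. None of the 60 is on a named spot. A spotted cDNA can bind transcripts of near-identical copies, so the Ppia value is uncertain in that respect, and the part of such copies in it was not tested.

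**Figure D1:**
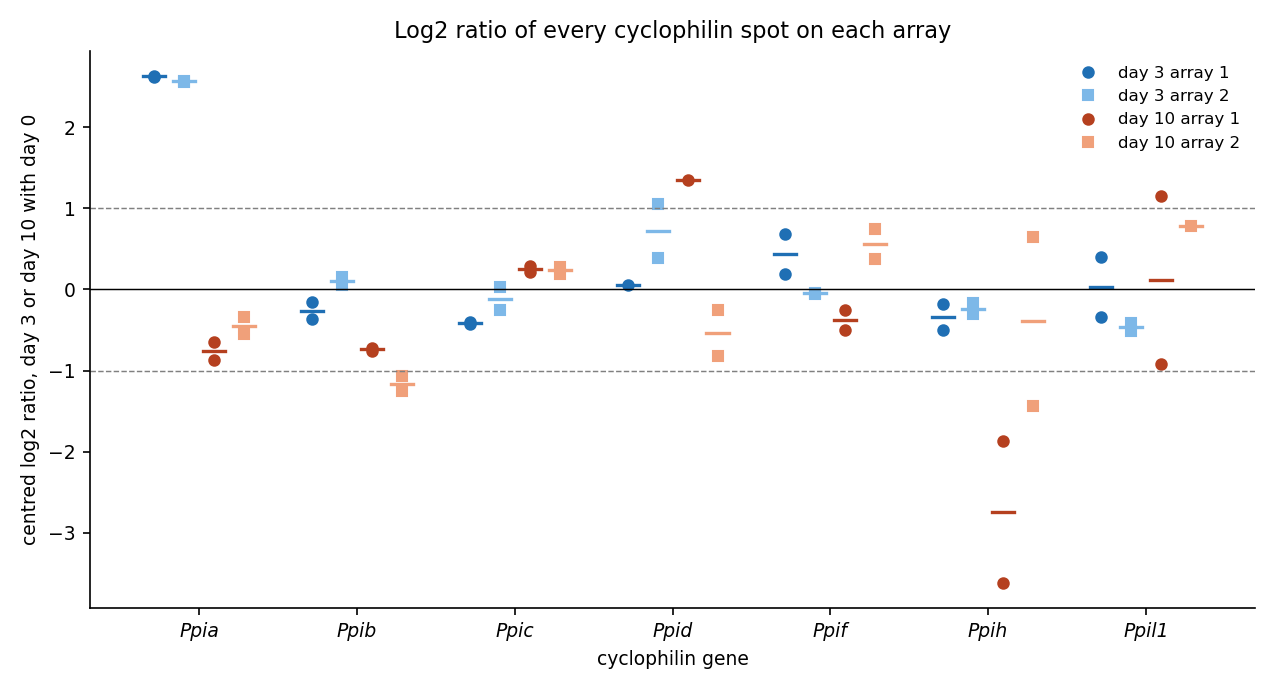
Each point is the centred log2 ratio (vertical axis) of 1 spot of a cyclophilin gene (horizontal axis), coloured by array, and short lines are the mean of a gene's spots on that array; dashed lines mark the 2-fold limit at -1 and 1. The day 3 readings of Ppia, from 2.56 to 2.63, stand above all other points, while the day 10 readings of Ppih spread from -3.61 to 0.65.

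Cyclophilin B, the product of Ppib (chr9:66060169-66066629), resides in the endoplasmic reticulum, where it takes part in collagen folding. At day 3 it gave -0.26 and 0.10 on the arrays, on either side of 0, for a mean of -0.08 ± 0.26. At day 10 it gave -0.74 and -1.16, and all 4 spots lay on the negative side, from -1.25 to -0.72. The mean of -0.95 ± 0.30 was not called, since array 1 was inside the limit while array 2 alone was beyond it, and it was at percentile 4.96 of all genes. The difference between the days was -0.87 ± 0.39, with the 4 array differences from -1.27 to -0.48, all of 1 sign.

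Ppic (chr18:53406341-53418007) encodes cyclophilin C, the other member with a signal sequence for the secretory pathway. Its ratios were small: -0.41 and -0.11 at day 3, and 0.25 and 0.24 at day 10. The means were -0.26 ± 0.21 and 0.24 ± 0.01, on opposite sides of 0, as for Ppia but in the other direction and with neither beyond 2-fold. Its difference between the days was 0.50 ± 0.21, with array differences from 0.35 to 0.66. The difference between the day 10 arrays, 0.01, was at percentile 1.57 of all genes.

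Cyp40, encoded by Ppid (chr3:79591337-79603810), carries the isomerase domain and a repeat domain that docks on Hsp90. It gave 0.06 and 0.72 at day 3 and 1.35 and -0.54 at day 10. The day 10 arrays therefore lay on opposite sides of 0, and the mean of 0.40 ± 1.34 has no settled sign. Array 1 alone was beyond the limit. Only 3 of its 4 possible readings were present at each day. The difference between the days was 0.01 ± 1.41.

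Ppif (chr14:25693574-25700468) encodes cyclophilin D, a regulator of the mitochondrial permeability transition. Its arrays lay on opposite sides of 0 at both days, with 0.44 and -0.05 at day 3 and -0.38 and 0.56 at day 10. The means were 0.20 ± 0.35 and 0.09 ± 0.67. Ppifos, a gene that overlaps Ppif in the gene table (chr14:25696356-25701282), has spots of its own, with 0.62 and -0.12 at day 3 and -0.63 and 0.41 at day 10. On each of the 4 arrays its sign was that of Ppif. Ppifos was added after its values were seen, and the share of gene pairs with such a match was not counted. The sources used here do not give whether the spots or the labelled RNA kept the strands apart, so the signal of the pair cannot be assigned to either gene.

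Ppih (chr4:119300010-119320523) encodes a cyclophilin of the U4/U6-U5 particle of the spliceosome. At day 3 its arrays were close, at -0.34 and -0.24, with a mean of -0.29 ± 0.07. At day 10 they were far apart, at -2.74 and -0.39, for a mean of -1.57 ± 1.66. The spots were apart as well: -1.87 and -3.61 on array 1, and 0.65 and -1.44 on array 2. The day 10 mean was at percentile 0.856 of all genes, but the difference between its arrays was at percentile 96.0, and the gene was not called, since array 1 alone was beyond the limit. Its difference between the days, -1.28 ± 1.66, was smaller than its own SD.

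Ppil1 (chr17:29250835-29263971) encodes a small cyclophilin of the activated spliceosome. It gave 0.03 and -0.46 at day 3, for a mean of -0.22 ± 0.35. At day 10 it gave 0.11 and 0.78, for a mean of 0.45 ± 0.47. The first of these rests on spots at 1.15 and -0.92, and the second on 1 spot, as the other had no value. With spots that carried a value on all 4 arrays alone, the day 10 mean was -0.07, so its sign is not settled.

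Without Ppia, the other 6 members had means from -0.29 to 0.39 at day 3, with a median of -0.15, and from -1.57 to 0.45 at day 10, with a median of 0.17. The median over all measured genes was 0.01 at each day. In order of the day 3 mean the members ran Ppia, Ppid, Ppif, Ppib, Ppil1, Ppic and Ppih. Neighbours below Ppia in that order were no farther apart than the larger of their SDs. Both day 3 arrays had 1 sign for 4 of the 7 members, and both day 10 arrays for 5. The share of all genes with 1 sign on both arrays of a day was not counted.

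**Figure D2:**
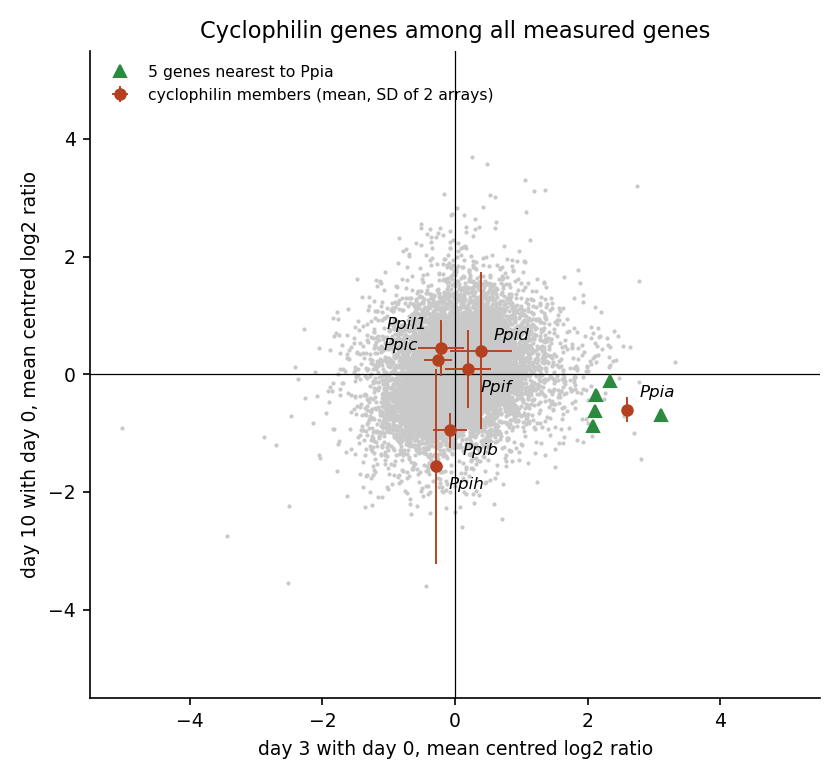
Grey points are all genes with a value on the 4 arrays, by mean centred log2 ratio at day 3 (horizontal) and day 10 (vertical); orange points are the 7 cyclophilin members with the SD of the 2 technical arrays, and green triangles the 5 genes nearest to Ppia. Ppia sits at 2.60 and -0.60, apart from the other 6 members, whose day 3 means lie between -0.29 and 0.39.

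The members also differed in a brightness measure drawn from the ratios. Where both channel values were whole numbers up to 10000, the deposited ratio can be traced back to the smallest pair of whole numbers that gives it, which held for 59.3% to 62.0% of the values of an array. These pairs are lower bounds, since a factor common to both channels is lost, so the larger pairs of a gene say more about its brightness than the smaller ones. For Ppid this was the case for all 6 readings. At day 3 they were 1047 to 1033 on array 1 and 647 to 321 and 6607 to 5179 on array 2, and at day 10 they were 308 to 125 on array 1 and 499 to 620 and 3487 to 6411 on array 2. For Ppif it held for all 8, from 107 to 113 on day 3 array 2 up to 7731 to 6931 on day 3 array 1. The next pair of that array was 698 to 745, and the smallest of the other 6 was 2784 to 1721, on day 10 array 2. For Ppia, 1 of 8 readings was such a ratio (2303 to 3720, day 10), for Ppib 1 of 8, for Ppic 0 of 8, for Ppih 2 of 8 and for Ppil1 6 of 7. In the brightness measure built from these numbers, Ppia was at percentile 88.0 of all genes, Ppic 84.5, Ppib 80.3, Ppih 73.4, Ppil1 55.1, Ppif 45.1 and Ppid 23.5. Readings without such a pair entered it with the larger numbers that fitted them, and so count as bright. The percentiles of Ppia, Ppib, Ppic and Ppih therefore rest mostly or wholly on readings with no recovered channel values, and are not measured intensities.

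The 3 members at the highest percentiles of this measure had array differences below the median of all genes at both days. That median was 0.39 at day 3 and 0.52 at day 10. For Ppia the differences were 0.06 and 0.31, for Ppic 0.30 and 0.01, and for Ppib 0.36 and 0.42. Ppid, at the lowest percentile, had 0.66 and 1.89, and Ppif 0.49 and 0.94. Ppih did not follow this order at day 10, with 2.35 at a brightness percentile of 73.4. Adjacent spots of a gene on 1 array differed by 0.01 for Ppia on both day 3 arrays, where the median over all adjacent pairs was 0.35 and 0.33, and by 0.22 and 0.20 at day 10. The farthest spots of a pair were those of Ppih, which differed by 2.09 on day 10 array 2.

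**Figure D3:**
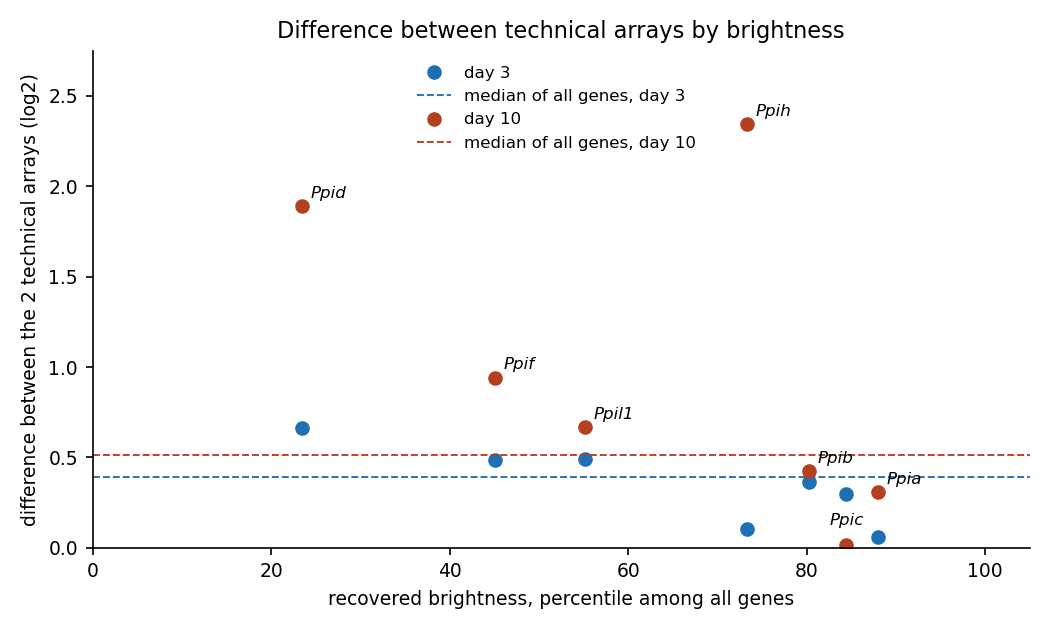
The horizontal axis is the percentile of the brightness measure, in which readings without a whole-number pair count as bright. The vertical axis is the difference in log2 ratio between the 2 technical arrays, for each cyclophilin gene at day 3 (blue) and day 10 (orange). Dashed lines are the medians over all genes, 0.39 and 0.52. Ppia, Ppib and Ppic lie below the line of the same day at both days, and Ppih at day 10 lies highest at 2.35.

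The genes whose values on the 4 arrays were nearest to those of Ppia were found by the mean absolute difference over the arrays, among 12653 genes with values on all of them. The median of this distance over those genes was 1.67. The nearest were Rpl22l1 at a distance of 0.30, Rps6 at 0.34, Rps29 at 0.36, Hba-ps3 at 0.39 and Rpl26 at 0.40. Rps6, Rps29 and Rpl26 encode proteins of the ribosome and Rpl22l1 a close relative of one, while Hba-ps3 is an alpha-globin pseudogene. Rps6 was at 2.11 ± 0.13 at day 3 and -0.62 ± 0.49 at day 10, Rps29 at 2.13 ± 0.06 and -0.35 ± 0.17, and Rpl26 at 2.34 ± 0.40 and -0.12 ± 0.33. Hba-ps3 was at 2.08 ± 0.03 and -0.88 ± 0.31. All 5 were called on the positive side at day 3 and none at day 10, which their choice by nearness to Ppia largely fixed. Spots of ribosomal protein genes can be shared with pseudogene copies, so these values are uncertain. Across all genes, 102 were called on the positive side at day 3 and on the negative side between the days.

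Of the other cyclophilins, 9 of 10 listed genes were on named spots, and none was called at day 3. Their median was 0.26 at day 3 and 0.02 at day 10. Between the days their median difference was -0.45, with 8 of the 9 below 0 and 1 above, against a median of 0.0003 over all genes. None of the 9 was called between the days, where 3.56% of all genes were. Cwc27, a spliceosomal cyclophilin, was called on the negative side at day 10, at -2.03 and -1.51 on the arrays (-1.77 ± 0.36), and was at -0.72 ± 0.13 at day 3. Of the other 2 families of prolyl isomerases, the FK506-binding proteins had 12 of 17 genes on named spots. None was called among 12 measured at day 3 and 10 at day 10, where 2.8% and 3.65% of all genes were called. The list medians were 0.04 and -0.24. Fkbp1a, which encodes the main cytosolic target of the drug FK506, gave 0.61 and 0.98 at day 3 and -1.65 on day 10 array 1, with no value on array 2. Its brightness percentile was 14.7. Aipl1 was the single FK506-binding family member called between the days, at -1.29 ± 0.30. Of the parvulins, Pin4 was measured, at 0.25 ± 0.14 and 0.79 ± 0.45.

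Calcineurin, its NFAT targets, its regulators and Bsg, a cell surface receptor for secreted cyclophilin A, had 11 of 12 genes on named spots. None was called among 10 measured at day 3, 11 at day 10 and 10 between the days. The shares of all genes called were 2.8%, 3.65% and 3.56%. The list median was 0.03 at day 3 and 0.19 at day 10. Ppp3ca, a catalytic subunit of calcineurin, was at -0.33 ± 0.38 and 0.12 ± 0.34. Bsg, at brightness percentile 96.8, was at 0.07 ± 0.09 and 0.19 ± 0.26.

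Genes that work beside the other members were listed by compartment. In the endoplasmic reticulum, where cyclophilin B works, 17 of 17 folding and collagen-modifying genes were on named spots. P4ha1, a prolyl hydroxylase subunit, was called at day 3 with 1.25 and 3.17 on its arrays (2.21 ± 1.36) at a brightness percentile of 10.4. No other of the 17 genes measured at day 3 was called, and none of the 16 measured at day 10. Hspa5, the chaperone BiP, was at 0.55 ± 0.52 and -0.80 ± 0.04, on opposite sides of 0, with neither beyond 2-fold. The list medians were -0.03 and 0.14.

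Of 10 genes listed as partners of cyclophilin D in mitochondria, Trap1, a mitochondrial relative of Hsp90, was called at day 10 with 2.50 and 2.92 on the arrays (2.71 ± 0.29), against -0.07 ± 0.29 at day 3. The difference between the days, 2.77 ± 0.41, was also called. The other 9 were not called at any comparison, and the list medians were 0.07 and -0.23. Of 13 spliceosome genes, Prpf3, which encodes a protein of the particle that holds Ppih, was called on the negative side at day 10, at -1.44 and -1.14 (-1.29 ± 0.21). Its day 3 value was -0.18 ± 0.22. The list medians were -0.10 over 12 measured genes and -0.14 over 13. Of 8 genes listed for Hsp90 and its chaperone partners beside Ppid, 5 were on named spots and none was called. These were the co-chaperone genes Stip1, Cdc37, Ptges3 and Stub1, and the chaperone gene Hspa8. The Hsp90 genes of the list, Hsp90aa1 and Hsp90ab1, were not on named spots. The list medians were -0.04 over 4 measured genes and -0.66 over 5.

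Other genes that serve as PCR references beside Ppia were also listed, and 13 of 16 were on named spots. None was called at day 3, where their median was 0.17, and at day 10 the median over 12 measured genes was -0.29. Ywhaz, which encodes a 14-3-3 protein, gave 0.53 and 1.39 at day 3 (0.96 ± 0.61) and was called on the negative side at day 10, at -1.62 and -1.02 (-1.32 ± 0.43). Its difference between the days was -2.28 ± 0.74. Actb was at 0.17 ± 0.14 and -0.12 ± 0.16, and Hprt at 0.54 ± 0.13 and -0.51 ± 0.15. Across the 12 reference genes with a value at both days the differences ran from -2.28 to 0.89, or from -1.47 to 1.41 with the sign of the day 10 arrays turned. Ppia, at -3.20 or -2.00, was chosen for its size, so its place outside these ranges is a description.

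**Figure D4:**
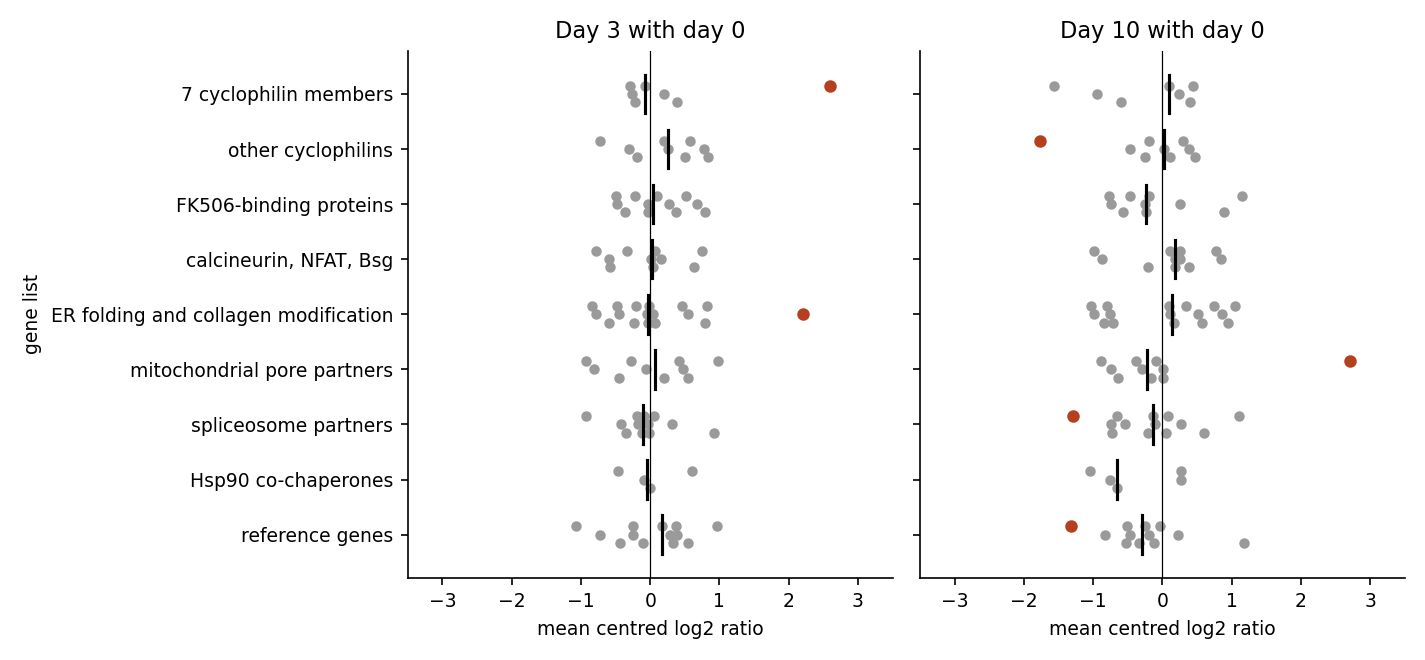
Each point is the mean centred log2 ratio of a gene at day 3 (left) and day 10 (right), in rows by gene list. Red points were called beyond 2-fold on both arrays and black bars are list medians. The row named Hsp90 co-chaperones also holds the chaperone gene Hspa8. Ppia is the red point at 2.60 in the top row at day 3, and no cyclophilin member is red at day 10.

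The labelled cell type was set against its markers. All 7 measured pluripotency markers were on the negative side on both arrays at day 3, with a median of -0.76. At day 10 the means of all 6 were negative, with a median of -0.76, but 3 of the 6, Nanog, Dppa5a and Esrrb, were on the positive side on array 1 and had their arrays on opposite sides of 0. Dppa5a was called at day 3 at -2.70 ± 0.04 and none at day 10. A ratio gives no level, so whether a marker was present at any day cannot be read from it. Of other cell types, fibroblast markers had medians of 0.21 and -0.03 over 6 genes, macrophage and leukocyte markers 0.39 and 0.33 over 4, and visceral endoderm markers 0.21 over 6 and 0.25 over 5. Of these, Apob at 1.30 ± 0.35 was called at day 3 and none at day 10. Their part in the Ppia value was not tested.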

How the data were processed

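The deposited table holds 1 log2 ratio of the channels per spot and array, as the authors left it. The sources used here do not give the scanner, software, dyes or background treatment. The base was read from the values: 59.3% to 62.0% of an array's values were ratios of whole numbers up to 10000 in base 2, against at most 2.36% in base e, 3.37% in base 10 and 1.84% after a small random shift.

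Spots took their gene from the platform annotation, and a lookup of the Entrez IDs in RefSeq (GRCm38.p6) altered 0 symbols. In all, 32544 spots had 1 gene symbol, 588 several and 12996 none. From the first, 480 control spots were left out. The median of the 32064 spots kept was subtracted from each array, and a gene's value is the mean of its spots. Calls needed both arrays of a day at or beyond 1 (log2) with 1 sign, and between the days all 4 array differences. No significance test was run, since each day is 1 RNA pair, and the number of arrays limits the precision. The genes named are the 7 members, up to 4 called genes of each list and a few named in advance, with the 5 genes nearest to Ppia. RIKEN, EST and predicted names were left out there. Dppa5a, Apob, Pin4 and Ppifos were added after their values were seen. The members, lists and alternatives were chosen with earlier results of these data known. Promoter letters are from the RefSeq table of GRCm38.p6. Steps were tested on simulated data. The tools were Python 3.11.15, pandas 2.3.3, numpy 2.4.6 and matplotlib 3.10.9.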

Additional observations from a re-analysis of the deposited data

Results flagged for a closer look

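Some genes had both day 3 arrays on one side of 0 and both day 10 arrays on the other. The difference between the days was not tested, since each day is 1 RNA pair. Of 12654 genes with values on the 4 arrays, 1748 (13.8%) showed this, and so did 2 of the 7 cyclophilin members. Ppia differed by -3.20, from 2.60 at day 3 to -0.60 at day 10, and Ppic by 0.50, from -0.26 to 0.24. Of the 17 other genes named by rule, 9 showed it as well. Among the genes nearest to Ppia these were Rpl22l1 with a difference of -3.81, Hba-ps3 with -2.96, Rps6 with -2.73 and Rps29 with -2.48, which were picked for that likeness. Among the reference genes, Ywhaz differed by -2.28, Hprt by -1.05 and Actb by -0.28. Hspa5 differed by -1.35 and Aipl1 by -1.29. In each case both values use day 0 RNA, and opposite sides hold only if the ratios of both days run the same way, which the sources used here do not state.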

How the results depend on the processing

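Under all 14 other settings of the processing, limits and arrays Ppia was called at day 3 and between the days, and under none at day 10. Some of these settings could not change its calls. The median of its 2 spots equals their mean, and both spots had a value on all 4 arrays. Leaving out an array of 1 day also leaves the call at the other day as it was. A 1.5-fold limit, the limit on the mean alone and leaving out an array could add calls but remove none. Under these settings its calls at day 3 and between the days were therefore bound to stay. Its day 3 value ran from 2.56 without centring to 2.82 with all arrays scaled to a common spread, where it moved by more than its technical SD. Its day 10 value ran from -0.65 to -0.55 and the difference between the days from -3.37 to -3.15. With arrays left out in turn these were 2.57 to 2.63, -0.75 to -0.45 and -3.35 to -3.04. At day 10, where 0 members were called, the count became 1 of 7 with the spot of smallest array difference (Ppih; 6% of all genes called, against 3.65%), with the limit on the mean alone (Ppih; 10.7%) and with a limit of 1.5-fold (Ppib; 13.8%). Leaving out an array, where 1 must pass in place of 2, gave 1 (Ppib, without day 10 replicate 1; 16.2%) or 2 (Ppid and Ppih, without day 10 replicate 2; 20.5%). Between the days the count of 1 became 2, with Ppih added, for the spot of smallest array difference (6.53% of all genes, against 3.56%), the limit on the mean alone (16.1%) and without day 10 replicate 2 (15.4%), and stayed at 1 without each other array (10% to 11.9%). These added calls came where more genes of all kinds were called. Turning the sign of the day 10 arrays, added after the data were seen, gave Ppia a difference of -2.00 and left the count at 1. The 171 values of the other 6 members under the 14 settings include some that could not differ. These are the values with the median of the spots and, for Ppib, Ppic, Ppif and Ppih, those of spots with a value on all 4 arrays. Of the 171, 7 moved by more than the technical SD and 14 turned sign, 9 of them with an array left out. All of these were values of members that were not called, and the cause was not tested. No paired analysis was possible because the labels give the arrays no shared replicate numbers. Of the means of the 7 members at a day, those of Ppid and Ppih at day 10 had the widest technical SDs, 1.34 and 1.66.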
